A study of Sus scrofa with 2 samples.

Results

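Solute carriers and related membrane transporters were examined in the muscle of abnormal and normal cloned piglets. The group held 135 of the 12535 genes with at least 1 unique read in either library. Of these, 65 had a symbol that begins with SLC, 69 were recognised by the protein description alone (solute carrier, monocarboxylate, amino acid or glucose transporter, or ADP/ATP translocase), and LOC100155620 was added by name. No entry had to be left out for a carnitine description. By family, 98 members belonged to the plasma membrane class, 16 were mitochondrial carriers (SLC25), 19 were carriers of other intracellular membranes, and 2, SLC9A3R1 and SLC9A3R2, were scaffold proteins that share the letters of the symbol but carry nothing themselves. A current SLC symbol was found in RefSeq or Ensembl for 52 of the 70 members that the tables list under a LOC symbol or none.

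The piglets were made by somatic cell nuclear transfer (SCNT), delivered by caesarean section and sampled on Day 1 after birth. RNA of biceps femoris, a hind-limb skeletal muscle, was pooled within each group and sequenced as a library of 3 abnormal cloned piglets, whose phenotypes included an enlarged tongue, inability to stand or walk and umbilical defects, and a library of normal cloned piglets (4 in the study's methods, 3 in the labels). Day 35 embryonic fibroblasts of a male Large White pig were the donor cells of the abnormal cloned piglets and of 2 normal ones, while the remaining 2 normal piglets were cloned with fibroblasts from the ear of a second male, which makes the donor a partial difference between the pools. With 1 pooled library per group there is no replicate check: the test compares these libraries and not the conditions, and the intervals cover counting error only.

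Most solute carriers move 1 kind of small molecule across a membrane, either down its gradient or coupled to sodium, protons or an exchanged substrate. In skeletal muscle SLC2A4 (GLUT4) brings in glucose in response to insulin and contraction, and some SLC16 proteins, such as SLC16A1, exchange lactate with the blood. The SLC38, SLC7 and SLC1 families supply amino acids. Inside the cell the SLC25 carriers link the cytosol with the mitochondrial matrix by passing ADP, ATP, phosphate, amino acids and nucleotides across the inner membrane.

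The counts summed to 6.38 M unique reads for the abnormal and 6.52 M for the normal cloned group, where 3 reads equal 0.470 and 0.460 RPM. The 13 transcripts of the mitochondrial genome took 36.0% (95% Wilson interval 35.98% to 36.05%) of the abnormal and 46.1% (46.05% to 46.13%) of the normal library. The median log2 ratio (abnormal over normal) was 0.36 over the 7493 genes with 10 or more reads in both libraries, so each change below was also judged relative to that shift, with the abnormal library rescaled by this median. Skeletal muscle alpha-actin (ACTA1) led the muscle markers with 42258 and 37387 RPKM, while slow myosin MYH7 fell from 35.9 to 3.12 RPKM. In a whole muscle, fewer cells of a type and less RNA per cell cannot be told apart. Values are given in the order abnormal, normal cloned group unless stated otherwise.

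Up-regulated transporters numbered 16 and down-regulated ones 1 when the abnormal was compared with the normal cloned group by the Audic-Claverie test (FDR up to 0.001, log2 RPKM ratio 1 or more in size). The largest log2 ratios among the calls were those of the thiamine transporter SLC19A2 (3.70), the amino acid transporter SLC38A2 (3.67), the monocarboxylate transporter family member SLC16A5 (3.27) and the mitochondrial carrier SLC25A36 (2.86), and the down-regulated gene was the amino acid transporter SLC7A10. The up-regulated share, 11.9% of the members, was close to the 12.0% of all genes tested, and the down-regulated share was 0.741% against 1.45%. Among the genes with 20 or more reads over both libraries, 16 of 62 transporters (25.8%) were up-regulated against 18.5% of all genes. In that set 1 was down-regulated, against 2.19% of all genes. The 16 include SLC19A2, which was added to the members by name with earlier results of these data known. After rescaling by the median ratio, 12 transporters were up-regulated and 4 down-regulated, against 6.48% and 3.97% of all genes tested and against 9.94% and 6.01% of genes with 20 or more reads. These calls assume no variation between samples beyond counting. With edgeR's exact test and an assumed variation of 0.2, the calls were SLC19A2, SLC16A1, SLC16A5 and SLC25A36, and with 0.4 there were 0, with 9 members at an unadjusted p under 0.05. The up-regulated calls lost after rescaling were those of SLC1A3, SLC7A2, SLC35E1 and SLC37A4.

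**Figure D1:**
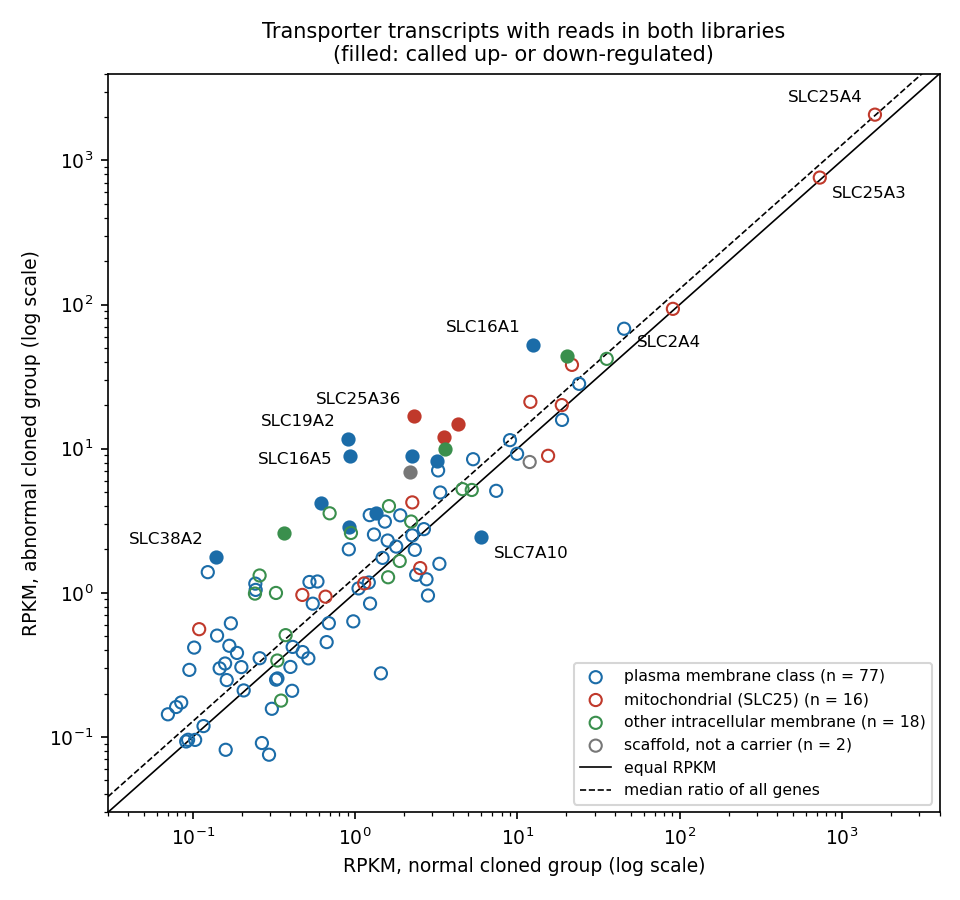
RPKM of the 113 transporters with reads in both libraries, normal cloned group on the horizontal and abnormal cloned group on the vertical log axis; each point is 1 gene, coloured by membrane class and filled where called. The solid line marks equal RPKM and the dashed line the median log2 ratio of 0.36. SLC25A4 and SLC25A3 sit far above the rest near the lines, and the filled points lie above them apart from SLC7A10.

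The levels spanned more than the differences did. SLC25A4 was the most abundant transporter, with 2075 and 1595 RPKM, and levels under 1 RPKM were found for 67 members in the abnormal and 79 members in the normal library. Mitochondrial carriers took 82.6% (95% Wilson interval 82.2% to 83.0%) of the transporter reads of the abnormal library and 85.9% (85.5% to 86.3%) of those of the normal library, and the plasma membrane class took 12.8% (12.5% to 13.2%) and 10.3% (9.91% to 10.6%). The median log2 ratio of all members was 0.62, against 0.35 over all genes. With a library at 0 set to 3 reads, and genes at 3 or fewer reads in both left out, it was 0.57 over 97 members and 0.39 over 10129 genes. Over the 55 transporters with 10 or more reads in both libraries it was 0.35, beside 0.36 over all such genes. Of the 62 transporters with 20 or more reads, 46 were higher in the abnormal cloned group (74.2%, against 68.9% of all genes). Of these 62, 34 lay above and 28 below the median shift, beside 4200 and 3939 of all genes with as many reads.

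**Figure D2:**
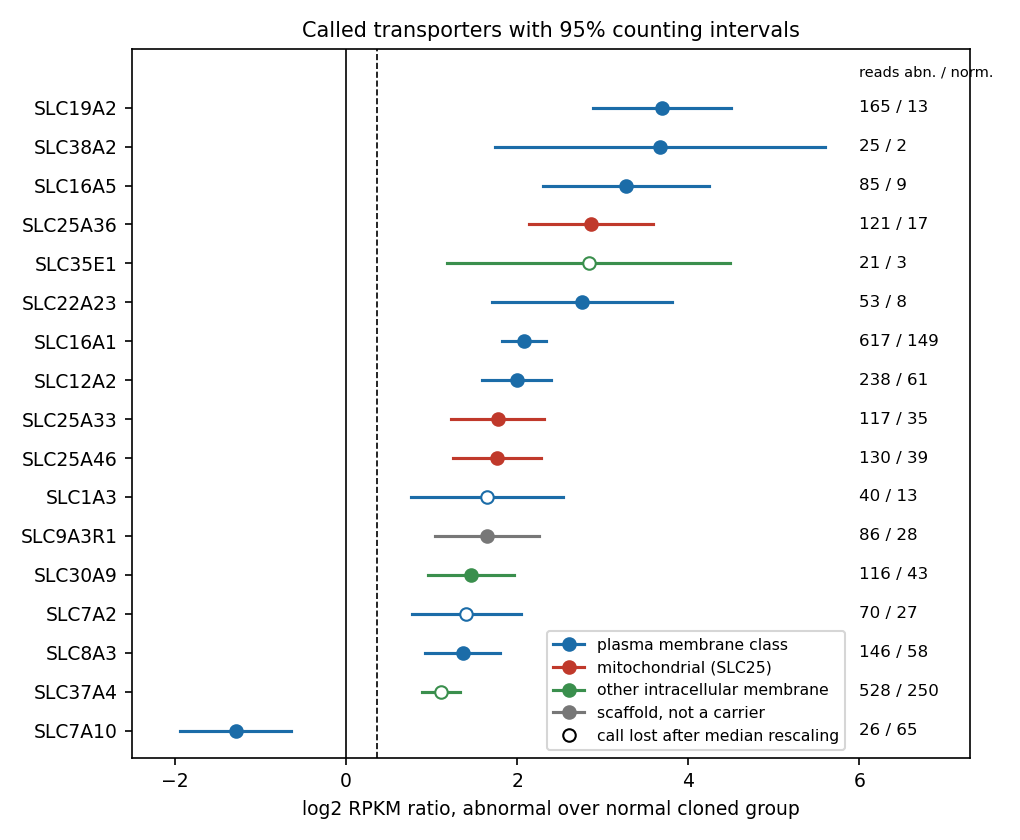
Log2 RPKM ratio (horizontal axis, abnormal over normal cloned group) of the 17 called transporters with 95% Wilson intervals that cover counting error; reads in the abnormal and normal library are at the right. The solid line is 0 and the dashed line the median shift of 0.36; open points mark the 4 calls lost after rescaling by the median ratio.

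Of the 15 members of the monocarboxylate group 2 were up-regulated (13.3%, against 12.0% of all genes tested). Both were among the 3 with 20 or more reads, where 18.5% of all such genes were up-regulated. The call with the lowest FDR of all called transporters was 1 of these, SLC16A1. SLC16A1 (MCT1), which carries lactate and pyruvate together with a proton and lies on chromosome 4 (111879347 to 111914029 of Sscrofa9, as all positions here), had 617 and 149 reads. Its level was 52.8 and 12.5 RPKM, a log2 ratio of 2.08 (95% interval 1.82 to 2.34, Audic-Claverie FDR 8.46e-69). SLC16A5 (MCT6), a family member not known as a lactate carrier (chromosome 12, 4367895 to 4378941), had 85 and 9 reads, or 8.95 and 0.928 RPKM, a log2 ratio of 3.27 (2.30 to 4.24, Audic-Claverie FDR 7.32e-16). SLC16A10 (TAT1), which carries aromatic amino acids, had 8.45 and 5.34 RPKM and was not called (log2 ratio 0.66, Audic-Claverie FDR 0.076). The other 12 of the 15 members of this group had under 20 reads over both libraries and none was called, among them SLC16A7 (MCT2) with 2 and 4 reads. A neighbouring entry described as MCT1-like, LOC100520191, had 1 and 0 reads, and reads that match both entries would be missing from the unique count.

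Of the 11 sugar transporters, 1 was up-regulated (9.09%, against 12.0% of all genes tested). It was among the 7 with 20 or more reads (14.3%, against 18.5% of all such genes). SLC2A4, the insulin-responsive glucose transporter, had 1059 and 724 reads and 67.9 and 45.5 RPKM. Its log2 ratio of 0.58 (0.44 to 0.72) did not reach the fold threshold, although the reads differed (Audic-Claverie FDR 7.09e-16). SLC2A12 had 2.51 and 2.25 RPKM and SLC2A8 1.75 and 1.48 RPKM. These minor glucose transporters had log2 ratios of 0.15 and 0.24, both with intervals that include 0, and both turned below 0 after rescaling. SLC37A4, which brings glucose-6-phosphate into the endoplasmic reticulum (chromosome 9, 44838158 to 44843313), was that gene, with 528 and 250 reads. It had 43.9 and 20.3 RPKM, a log2 ratio of 1.11 (0.89 to 1.33, Audic-Claverie FDR 9.86e-24), and lost its call after rescaling (0.75). MFSD4B, a sodium-coupled sugar transporter family member, had 66 and 31 reads (log2 ratio 1.12, Audic-Claverie FDR 0.00139) and SLC2A11 had 17 and 31 (-0.84, Audic-Claverie FDR 0.13). Both are named for their values, and neither was called. Per length, SLC2A4 was 3.65 times SLC16A1 in the normal and 1.29 times in the abnormal cloned group.

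The thiamine transporter SLC19A2 (THTR1) had the largest log2 ratio of all called transporters. It was added to the members by name, with earlier results of these data known, so its rank is no independent evidence. It is listed as LOC100155620 and described as the receptor of a feline leukemia virus subgroup, and RefSeq names the same gene SLC19A2 (chromosome 4, 84598339 to 84623218). It had 165 and 13 reads, or 11.7 and 0.904 RPKM, a log2 ratio of 3.70 (2.89 to 4.50, Audic-Claverie FDR 5.76e-34). After rescaling the ratio was 3.34.

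**Figure D3:**
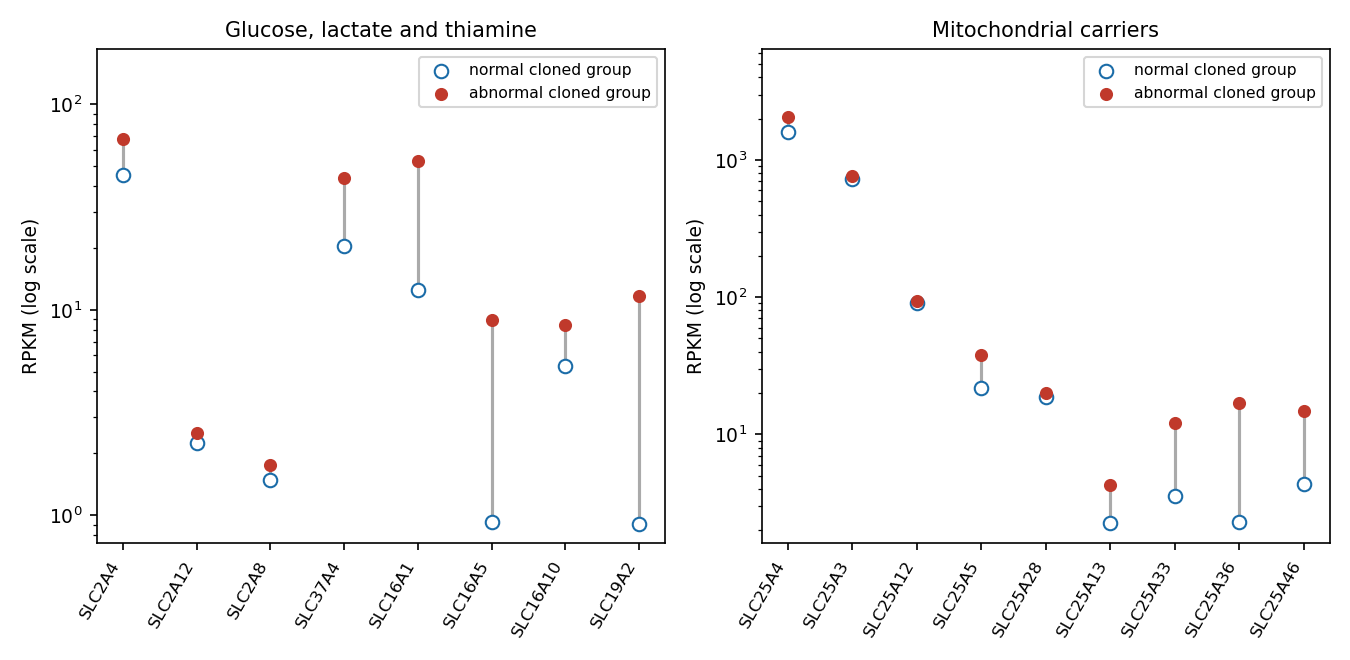
RPKM (vertical log axis) of named sugar transporters, SLC16 family members and the thiamine transporter (left) and of mitochondrial carriers (right). Lactate in the panel title refers to SLC16A1, and not to SLC16A5 or SLC16A10. Open points are the normal and filled points the abnormal cloned group, joined by a line for each gene. On the left, SLC16A1, SLC16A5 and SLC19A2 are far apart between libraries, whereas SLC2A12 and SLC2A8 nearly coincide. On the right, SLC25A36, SLC25A33 and SLC25A46 are far apart, whereas SLC25A3, SLC25A12 and SLC25A28 nearly coincide.

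Amino acid transporters moved in both directions. Of 22 members, 8 had 20 or more reads, of which 3 were up-regulated and 1 down-regulated, beside 18.5% and 2.19% of all genes with as many reads. After rescaling, 1 was up-regulated and 1 down-regulated. SLC38A2 (SNAT2), a sodium-coupled carrier of small neutral amino acids (chromosome 5, 72848112 to 72859781), had only 25 and 2 reads, covering 14.2% and 4.47% of the transcript. Its log2 ratio was 3.67 with a wide interval (1.74 to 5.61, Audic-Claverie FDR 2.44e-05). SLC1A3, a glutamate and aspartate transporter (chromosome 16, 19372955 to 19456093), had 40 and 13 reads (log2 ratio 1.65, Audic-Claverie FDR 0.000866). SLC7A2 (CAT2), a transporter of arginine and lysine (chromosome 17, 5032161 to 5053065), had 70 and 27 reads (log2 ratio 1.41, Audic-Claverie FDR 4.81e-05). Both lost their calls after rescaling, with log2 ratios of 1.29 and 1.05.

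SLC7A10 (Asc-1), an exchanger of small neutral amino acids (chromosome 6, 28694053 to 28708979), was the only down-regulated transporter. It had 26 and 65 reads, or 2.44 and 5.97 RPKM, a log2 ratio of -1.29 (-1.94 to -0.64, Audic-Claverie FDR 0.000267). The more abundant amino acid transporters were not called. SLC38A3 (SNAT3, glutamine) had 15.8 and 18.8 RPKM and SLC1A5 (ASCT2, neutral amino acids) 9.21 and 9.96 RPKM. Their log2 ratios were -0.25 (-0.53 to 0.03) and -0.11 (-0.46 to 0.24). SLC1A5 exceeded SLC38A2 71.2 times per length in the normal and 5.16 times in the abnormal cloned group, where the normal value rests on the 2 reads of SLC38A2. Of the entries described as cationic amino acid transporter 3-like, 3 lie close together on chromosome 6 and may share reads, the best covered having 30 and 36.

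Carriers of inorganic cations included 2 up-regulated genes among 10 members. Of the 6 with 20 or more reads, all had log2 ratios above 0 and 5 lay above the median shift, with a median of 1.25, whereas 68.9% of all genes with as many reads were above 0. The 2 calls were among these 6 (33.3%, against 18.5% of all such genes), and 2 of the 6 are overlapping entries of SLC41A3. SLC12A2 (NKCC1), which brings sodium, potassium and chloride into the cell (chromosome 2, 118727614 to 118817356), had 238 and 61 reads, or 8.92 and 2.24 RPKM (log2 ratio 1.995, 1.59 to 2.40, Audic-Claverie FDR 2.35e-25). SLC8A3 (NCX3), a sodium and calcium exchanger of muscle and brain (chromosome 7, 102030197 to 102160111), had 146 and 58 reads, or 8.22 and 3.20 RPKM (log2 ratio 1.36, 0.93 to 1.80, Audic-Claverie FDR 2.01e-09). The call of SLC8A3 was just kept after rescaling by the median ratio (1.003) and lost with TMM factors (0.97). The SLC41A3 entries, of a magnesium transporter family, had 33 and 12 reads, and 19 and 10 reads, and neither was called.

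Transporters of bicarbonate and protons, which regulate cell pH, had no call among 8 members, of which 4 had 20 or more reads. Of all genes tested, 12.0% were up-regulated and 1.45% down-regulated. SLC4A7 (NBCn1), a sodium bicarbonate cotransporter, had 11.5 and 9.01 RPKM (log2 ratio 0.35, 0.07 to 0.62), close to the median shift. SLC4A1, the anion exchanger of red blood cells, is named here for its value: it had 21 and 5 reads (log2 ratio 2.10, 0.74 to 3.46, Audic-Claverie FDR 0.00753) and missed the threshold. Of 8 red blood cell markers, 5 including SLC4A1 were listed, their summed level was 481 and 694 RPKM, led by HBB with 472 and 686 RPKM, and none was called. SLC4A1 overlaps an entry on the same strand that had 29 and 13 reads (log2 ratio 1.19). The parts of red blood cells and of this entry in the SLC4A1 value were not tested.

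Among metal transporters, SLC30A9, of the zinc transporter family of intracellular membranes (chromosome 8, 27958847 to 28012412), was up-regulated. It had 116 and 43 reads, or 9.91 and 3.60 RPKM (log2 ratio 1.46, 0.96 to 1.96, Audic-Claverie FDR 2.17e-08). SLC39A14 (ZIP14), which takes up zinc and iron, had 14 and 3 reads (log2 ratio 2.25, Audic-Claverie FDR 0.034), and an entry described as similar to SLC40A1 (ferroportin), the iron exporter, had 5 and 2 reads. SLC39A14 (interval 0.55 to 3.95) would pass an FDR threshold of 0.05 but not the one used here.

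Calls in the remaining substrate groups were isolated. SLC22A23, an organic ion transporter family member without a well-known substrate (chromosome 7, 2625463 to 2766959), had 53 and 8 reads (log2 ratio 2.76, 1.71 to 3.81, Audic-Claverie FDR 1.46e-08). It was the only call among 17 organic ion transporters (5.88% up-regulated, against 12.0% of all genes tested). SLC35E1, related to the nucleotide sugar transporters of the Golgi (chromosome 2, 61104481 to 61121417), had 21 and 3 reads (log2 ratio 2.84, 1.19 to 4.49, Audic-Claverie FDR 0.000983), close to the FDR threshold, and its call was lost after rescaling. The nucleoside transporter SLC29A1 (ENT1), among the 5 most abundant of the plasma membrane class, had 28.2 and 24.0 RPKM and was not called (log2 ratio 0.23, 0.01 to 0.46; -0.13 after rescaling).

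Some lower values passed only relative to the median shift, and the genes are named for that reason. SLC27A3, of the fatty acid transport protein family, had 12 and 36 reads (log2 ratio -1.55, Audic-Claverie FDR 0.00248). SLC6A12, a betaine and GABA transporter, had 24 and 51 reads (log2 ratio -1.06, Audic-Claverie FDR 0.00856). Neither was called as deposited, and both were down-regulated after rescaling (-1.91 and -1.42). The same held for the mitochondrial citrate carrier SLC25A1, with 87 and 154 reads (-0.79, and -1.15 after rescaling). SLC6A12 overlaps an entry on the opposite strand with 101 and 162 reads, whose reads the counting is not stated to separate by strand. SLC10A1, the bile acid transporter of liver cells, is named for its value alone. It had 3 and 16 reads (log2 ratio -2.38, Audic-Claverie FDR 0.0105) and was not called as deposited or after rescaling (-2.74). Of 9 liver markers 7 were listed, with a summed level of 43.4 and 70.0 RPKM and 3 down-regulated, of which albumin (ALB) had 12 and 271 reads. APOA1 made up most of that sum with 40.3 and 37.2 RPKM (log2 ratio 0.12), and the other 6 summed to 3.14 and 32.8 RPKM. The part of liver-type transcripts in the SLC10A1 value was not tested.

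**Figure D4:**
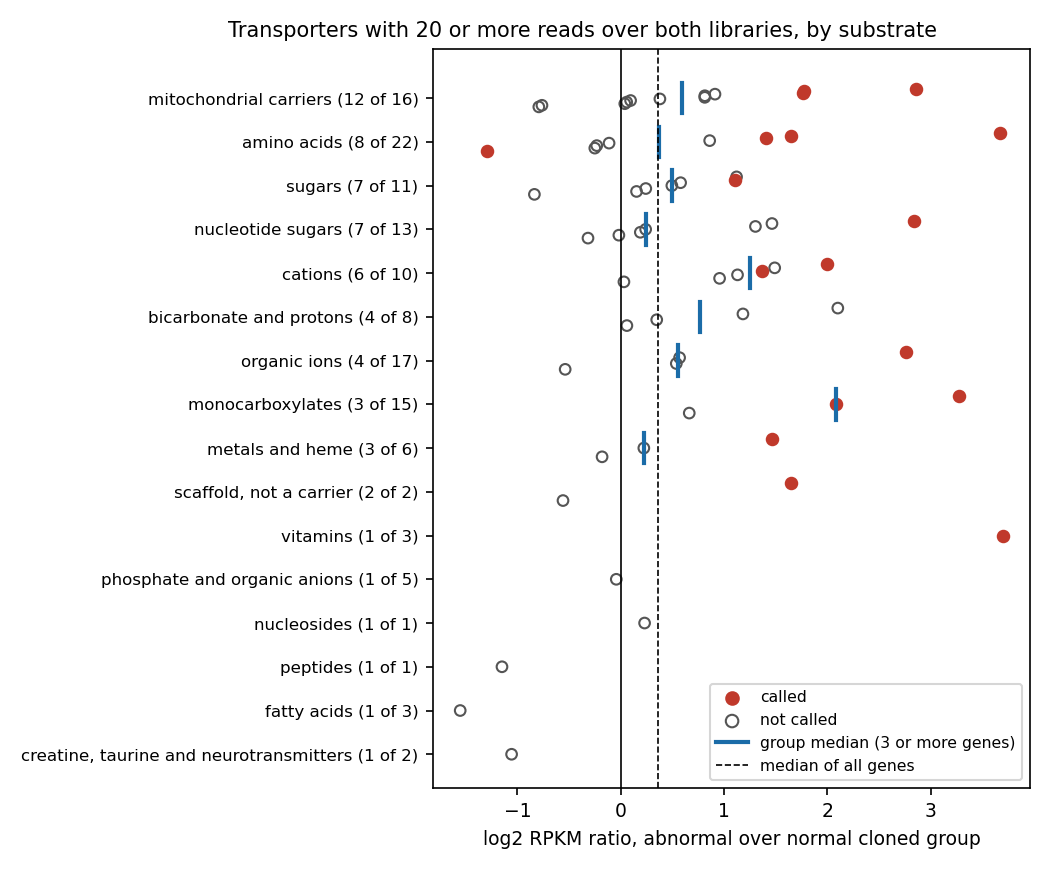
Log2 RPKM ratio (horizontal axis, abnormal over normal cloned group) of the 62 transporters with 20 or more reads over both libraries, by substrate; each point is 1 gene, filled where called, and the labels give the genes shown of all members in the group. The bars are medians of groups with 3 or more genes, the solid line is 0 and the dashed line the median shift of 0.36; cations and monocarboxylates have the rightmost medians.

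Mitochondrial carriers divided by abundance. The most abundant ones differed little: SLC25A4, the ADP/ATP carrier of heart and muscle, had 18365 and 14427 reads (log2 ratio 0.38, 0.35 to 0.41), close to the median shift. SLC25A3, the phosphate carrier, had 759.5 and 729.6 RPKM (log2 ratio 0.06, 0.01 to 0.11), and SLC25A12, the aspartate and glutamate carrier of muscle, 93.3 and 90.8 RPKM (0.04, -0.08 to 0.16). SLC25A28 (mitoferrin-2), an iron carrier, had 20.1 and 18.8 RPKM (0.10, -0.22 to 0.41). These 3 turned below 0 after rescaling, to between -0.32 and -0.26.

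The isoforms used more by other cell types had log2 ratios above the median shift but under the fold threshold. SLC25A5, the ADP/ATP carrier typical of dividing cells, had 38.1 and 21.7 RPKM (log2 ratio 0.81, 0.55 to 1.08, Audic-Claverie FDR 1.04e-08). SLC25A13 (citrin), the aspartate and glutamate carrier typical of liver, had 70 and 38 reads (0.91, 0.35 to 1.48, Audic-Claverie FDR 0.00678). Per length, SLC25A4 exceeded SLC25A5 73.5 times in the normal and 54.4 times in the abnormal cloned group, and SLC25A12 exceeded SLC25A13 40.3 and 22.0 times. The difference between these ratios was not tested.

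Up-regulated mitochondrial carriers were 3 of 16, all of low to middle abundance and all kept after rescaling. SLC25A36, a pyrimidine nucleotide carrier (chromosome 13, 66578427 to 66616507), had 121 and 17 reads, or 16.8 and 2.31 RPKM (log2 ratio 2.86, 2.14 to 3.59, Audic-Claverie FDR 8.83e-20). SLC25A33, the other known pyrimidine nucleotide carrier (chromosome 6, 47008315 to 47042622), had 117 and 35 reads, or 12.1 and 3.55 RPKM (1.77, 1.23 to 2.31, Audic-Claverie FDR 6.48e-11). SLC25A46, which lies in the outer membrane and takes part in mitochondrial fusion and fission (chromosome 2, 104136684 to 104159215), had 130 and 39 reads, or 14.7 and 4.33 RPKM (1.77, 1.25 to 2.28, Audic-Claverie FDR 4.95e-12). The share called, 18.8% of 16, was 25.0% of the 12 with 20 or more reads, beside 18.5% of all such genes. The median log2 ratio of the mitochondrial carriers was 0.66 and that of the plasma membrane class 0.60, where many members had few reads. Over members with 10 or more reads in both libraries it was 0.60 for 12 mitochondrial carriers. For 31 members of the plasma membrane class it was 0.24, beside 0.36 over all such genes. The difference between the classes was not tested.

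Of the scaffold proteins, SLC9A3R1 (NHERF1), which anchors transporters and receptors under the plasma membrane (chromosome 12, 4689210 to 4706638), was up-regulated with 86 and 28 reads (log2 ratio 1.65, 1.04 to 2.26, Audic-Claverie FDR 1.82e-07). SLC9A3R2 had 99 and 149 reads (-0.56, -0.92 to -0.19, Audic-Claverie FDR 0.00925) and was not called. SLC9A3R1 begins 310268 bases after the end of SLC16A5, and the 16 up-regulated genes lay on 11 chromosomes. None of the 17 called genes overlapped another listed entry, whereas 18 members did. The up-regulated members had a median transcript of 1922 bases, against 1701 for all members and 1479 for all genes, or 1863 and 1602 for those with 20 or more reads, and correction of the ratio for length left 10 of the 16 up-regulated calls in number.

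Many members were too shallow to judge. Of the 135, 73 had under 20 reads over both libraries and 22 had reads in only 1 library, 15 of them in the library of the abnormal and 7 in that of the normal piglets, with at most 5 reads. Of all 12535 genes tested, 815 had reads only in the abnormal and 791 only in the normal library. A gene at 0 in a library needed 13 reads in the other to be called, and 65 members had too few reads in all for any call. SLC2A10, with 4 and 5 reads, is an example. Among the 62 better covered members, the interval lay wholly above the median shift for 24, wholly below it for 13, and included it for 25. The same counts were not made over all genes, so these cannot be set against the background.

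Genes that work with these transporters were listed with earlier results of these data known, so their share is no independent evidence, and 32 entries were found for 47 symbols. Of these, 10 were up-regulated (31.25%, against 12.0% of all genes) and 0 down-regulated by the Audic-Claverie test, and all 10 were among the 29 entries with 20 or more reads, where 18.5% of all genes were up-regulated; after rescaling, 7 were up-regulated and 1 was down-regulated. HK2, the insulin-regulated hexokinase that traps the glucose SLC2A4 brings in, had 411 and 25 reads (log2 ratio 4.07), whereas HK1 had 190 and 125 (0.64). LDHA, which makes lactate, had 531 and 255 RPKM (1.06) and lost its call after rescaling. Of the GLUT4 traffic genes, TBC1D1, RAB10 and both entries of TBC1D4 were up-regulated, with log2 ratios of 1.23 to 2.23, and TBC1D1 lost its call after rescaling. TXNIP, an inhibitor of glucose uptake, had 692 and 503 RPKM (0.46), STX4, the syntaxin at which GLUT4 vesicles dock, had 127 and 105 reads (0.31), and neither was called.

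Other partners showed fewer calls. The sodium pump, whose gradient drives SLC12A2, SLC8A3 and SLC38A2, had 1 call of 6 entries, ATP1B1 with 51 and 15 reads (log2 ratio 1.80), lost after rescaling. Of the other mitochondrial membrane genes, UCP3, an uncoupling protein of muscle, was up-regulated with 215 and 69 reads (1.67). UCP2, a related protein of many tissues, had 185 and 296 reads (-0.65) and was down-regulated only after rescaling (-1.01). The channels VDAC1, VDAC2 and VDAC3 were not called, with log2 ratios of 0.26 to 0.65. TFRC, the transferrin receptor, had 788 and 259 reads (1.64), and ASNS, a target of the amino acid response like SLC38A2, had 386 and 117 reads (1.75). Both were up-regulated and kept their calls after rescaling. FTL, the light chain of the iron store ferritin, had 405 and 578 RPKM (-0.52) and was not called.

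Markers of other cell types are given beside these results as levels. The listed endothelial (4 of 5), fibroblast (4 of 5), smooth muscle (2 of 3), Schwann cell (2 of 4) and macrophage and leukocyte (4 of 5) markers had no call as deposited, and PTPRC, the leukocyte common antigen, with 5 and 22 reads (log2 ratio -2.11), was down-regulated after rescaling. Their summed levels were 44.1 and 41.8, 913 and 1033, 290 and 335, 29.6 and 18.5, and 11.3 and 14.8 RPKM. Adipocyte markers were near 0, with 4 and 2 reads over the 3 of 5 that were listed, and 5 of 11 muscle markers were listed. The part of these cell types, of the mitochondrial transcript share and of MYH7 in the transporter values was not tested.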

How the data were processed

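Biceps femoris RNA of the abnormal and the normal cloned group was pooled within group before 1 oligo(dT) library was made from each. The authors filtered the reads, mapped them with SOAPaligner/soap2 (at most 2 mismatches) to Sscrofa9 transcripts and deposited 3 values per transcript, namely the unique read count, the RPKM (that count per transcript length and library total) and the percent of each transcript covered. Genes not listed in a library were taken as 0 reads. The members and lists were chosen with earlier results of these data known.

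The log2 ratio was computed from the deposited RPKM (0 set to 0.001). The Audic-Claverie test, two-sided by doubling, used the deposited counts, with Benjamini-Hochberg adjustment over 12535 genes, and its code was tested on simulated data. For a call, the FDR had to be 0.001 or lower and the log2 ratio 1 or more in size. Intervals come from the 95% Wilson interval of the abnormal library's part in the reads of each gene. Named genes were the called members, the 5 most abundant of the plasma membrane and mitochondrial classes, and a list of muscle transporters, and others are said to be named for their values. Membrane class and substrate came from a family table, so that 10 members of the plasma membrane class act in organelles. RefSeq and Ensembl tables of Sscrofa11.1 served for names only, and 7194 of 8429 Entrez identifiers matched. Alternatives were other tests (Fisher, edgeR with assumed variation), thresholds, scalings, pseudocounts, a length correction and membership rules. Python 3.11.15, numpy 2.4.6, pandas 2.3.3, scipy 1.17.1, R 4.3.3 and edgeR 4.0.16 were used. Some members of the lists are not reported here, and no sequences were analysed.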

Additional observations from a re-analysis of the deposited data

How the results depend on the processing

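The 16 up-regulated and 1 down-regulated transporters (9 up-regulated in the plasma membrane class, 3 mitochondrial) depended most on the assumed variation, which 1 library per group cannot give. The 9 were 9.18% of 98 plasma membrane members and the 3 were 18.8% of 16 mitochondrial carriers, against 12.0% of all genes tested. With 20 or more reads the shares were 24.3% of 37 and 25.0% of 12, against 18.5% of all such genes. With edgeR's exact test and an assumed variation of 0.4, up-regulated transporters numbered 0 (plasma membrane 0, mitochondrial 0, down-regulated 0), with 9 members at an unadjusted p under 0.05 and 3 calls among all genes. With 0.2 there were 4 (3 and 1, down-regulated 0), with 26 members at an unadjusted p under 0.05: SLC19A2, SLC16A1, SLC16A5 and SLC25A36. An FDR of 0.05 gave 25 up-regulated (15 plasma membrane) and 5 down-regulated, with 2316 calls among all genes in place of 1692. A log2 ratio of at least 2 gave 7 (5 and 1) and 0, with 457 calls among all genes. Benjamini-Yekutieli adjustment gave 0 down-regulated. The length correction gave 10 up-regulated and 5 down-regulated, with 1222 calls among all genes. Down-regulated transporters numbered 4 after rescaling by the median ratio, with TMM factors, without the mitochondrial-genome transcripts and without the 20 most abundant transcripts, and 3 after rescaling to equal GAPDH. Over all genes the down-regulated calls rose too, from 182 to 498, 548, 369, 424 and 337 in that order. Up-regulated transporters numbered 12, 11, 12, 12 and 13 in that order, while those over all genes fell from 1510 to 812, 751, 987, 882 and 1037. Members by symbol alone gave 9 up-regulated (5 and 0) and 0 down-regulated. Adding all genes with a current SLC symbol, chosen after seeing the data, gave 27 (15 and 7) and 2. The median log2 ratio of 0.62 became 0.22 with TMM factors and 0.15 with 1 added to RPKM, and stayed above 0 under each alternative tried.

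RNAs near the median shift changed sign with scaling. In the order median ratio, TMM, GAPDH, no mitochondrial-genome transcripts, no top 20 and length correction, the log2 ratio was -0.32, -0.35, -0.17, -0.21, -0.27 and -0.30 for SLC25A12, -0.26, -0.30, -0.12, -0.15, -0.21 and -0.18 for SLC25A28, -0.30, -0.34, -0.16, -0.19, -0.25 and -0.25 for SLC25A3, and -0.21, -0.24, -0.061, -0.094, -0.15 and -0.31 for SLC2A12. In the same order without GAPDH it was -0.13, -0.16, -0.016, -0.077 and -0.20 for SLC29A1 and -0.12, -0.15, -0.0048, -0.065 and -0.25 for SLC2A8. SLC4A7 had -0.011 (median ratio), -0.045 (TMM) and -0.27 (length), and SLC25A4 -0.014 (TMM). A scaling subtracts the same value from each ratio, and the length correction a value set by transcript length, so ratios near 0 change sign by construction. Of the other values of named transporters, 408 kept direction and side of the threshold, 70 lost the call and 1 gained it. No replicate could be left out, since that would empty a group, and no paired analysis was possible because each group has 1 pooled library.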

Other observations

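Further carrier genes lay outside the rule because the tables list them without an SLC symbol and with a protein description that the rule does not match. By current RefSeq or Ensembl symbol there were 76 of them, named here after their values were seen, of which 11 were up-regulated and 1 down-regulated by the Audic-Claverie test (14.5% up-regulated, against 12.0% of all genes). After rescaling by the median ratio, 5 were up-regulated and 3 down-regulated. Among the plasma membrane carriers, SLC7A8 (LAT2), a carrier of large neutral amino acids, had 202 and 46 reads in the abnormal and normal cloned group (log2 ratio 2.17, 1.71 to 2.63, Audic-Claverie FDR 6.34e-24). The phosphate transporters SLC20A1 and SLC20A2 had 123 and 49 reads (1.36, Audic-Claverie FDR 5.31e-08) and 75 and 26 reads (1.56, Audic-Claverie FDR 4.02e-06), and SLC5A6, which carries biotin and pantothenate, had 182 and 76 reads (1.29, Audic-Claverie FDR 1.03e-10). SLC20A1 and SLC5A6 lost their calls after rescaling.

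Among 14 further SLC25 genes, 4 were up-regulated and 1 down-regulated, and of the 11 with 20 or more reads 36.4% were up-regulated, against 18.5% of all such genes. After rescaling 2 were up-regulated and 1 down-regulated, with the calls of SLC25A15 and SLC25A24 lost. SLC25A25, an ATP-magnesium and phosphate carrier of the inner membrane, had 185 and 45 reads (log2 ratio 2.07, 1.603 to 2.538, Audic-Claverie FDR 9.33e-21), and SLC25A44, a carrier of branched-chain amino acids, had 49 and 7 reads (2.84, Audic-Claverie FDR 3.65e-08). SLC25A22, a glutamate carrier, had 36 and 89 reads (-1.27, -1.83 to -0.72, Audic-Claverie FDR 1.68e-05) and was down-regulated. The calls of these 3 were kept after rescaling. SLC25A11, the 2-oxoglutarate carrier, listed as OMC, was abundant, with 2318 and 2865 reads, and was not called (-0.27, Audic-Claverie FDR 8.27e-11).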
